A study of Rattus norvegicus with 24 samples.

Results

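The genes described here are cell cycle and DNA replication genes of the rat tibialis anterior (TA), the main dorsiflexor of the ankle. They were chosen by name from a list of 40 genes and found by their gene symbol, with all transcripts of a symbol summed to 1 value per gene. The transcript table held 38 of the 40 among 15273 genes. These were 25 mitosis genes, 10 replication genes and 3 G1 cyclins. The mitotic cyclin Ccnb2 and the ribonucleotide reductase subunit Rrm2 had no row under their symbols and were not analysed here.

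A dividing cell passes through G1, copies its DNA in S phase and separates the copies in mitosis. D and E cyclins drive the cell out of G1. The MCM helicase, the sliding clamp PCNA and the enzymes that supply nucleotides work in S phase, while CDK1 with its cyclins, the Aurora and Polo kinases, kinesin motors and the anaphase-promoting complex act at mitosis. The nuclei of mature muscle fibers do not divide. Dividing cells in muscle are mononuclear cells that lie beside or between the fibers, such as satellite cells, fibroblasts, macrophages and endothelial cells.

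All rats were adult male Wistar rats with an implanted pulse generator, which gave the left hind limb 1 session a day of SpillOver resistance training, a stimulation in which the dorsiflexors contract against partly recruited plantarflexors. The 4 trained groups held the left TA of 3 rats each after 2, 10, 20 or 30 days of training. Muscles were removed 1 h after the last session, so each trained value combines that session with the training before it. The 12 contralateral muscles were the right TA of the same 12 rats and formed 1 control group. They came from rats that had been implanted and trained on the other side, and no muscle of an untrained rat is part of any comparison here. The RNA was poly-A selected and came from the whole muscle.

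The values are of the TPM type: scaled to transcript length and to a total that was the same in each library. Each library was then divided by a median-of-ratios factor (0.778 to 1.14). Levels of different genes can therefore be compared, and a value of 1 is low. The 7 of 8 muscle fiber markers in the table summed to between 47703 and 80333 in the 24 libraries, while the eighth, Ttn, was not analysed here. The contralateral mean was below 2 for 34 of the 38 cell cycle genes. Fold changes are differences in log2(value + 1) and understate the change of low genes. Tests are limma tests with Benjamini-Hochberg adjustment over all genes fitted and a threshold of 0.05.

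Promoters of these genes carry short motifs that are textbook elements of cell cycle control: the CHR (TTTGAA or TTCGAA) and the CCAAT box of mitosis genes, and the E2F site (TTTCCCGC, TTTCGCGC, TTTGCCGC or TTTGGCGC) of replication genes. Windows from 250 bases before to 50 after the transcript start (RefSeq, GRCr8) were at hand for 31 of the 40 genes, with 2 windows for Gas2l3 and for Kif2c, and were searched on both strands. The CHR was in 14 of 24 mitosis windows (58.3%), 3 of 8 replication windows (37.5%) and 19.7% of all 33469 rat windows. Counted by itself, the CCAAT box did not split the classes. It was in 17 of 24 mitosis windows (70.8%), 6 of 8 replication windows (75%) and 37.5% of all windows. The CHR together with the CCAAT box was in 12 mitosis windows (50%), against 7.95% of all windows and 2 of 8 replication windows. The E2F site was in 6 of 8 replication windows (75%), 1 of 24 mitosis windows (4.17%) and 2.14% of all windows. The E-box CACGTG was in 2 of the 33 windows (6.06%) and in 6.42% of all windows. A match describes the letters and is no evidence of binding. The 150 bases before the start are shown for 3 mitosis genes with a CHR and a CCAAT box whose values are described gene by gene further on. Capitals mark any of the 4 motifs on either strand, ATTGG is the CCAAT box read on the other strand, and matches that touch or overlap run together as 1 block of capitals:
Cdk1, chr20:19265143-19265292, plus strand: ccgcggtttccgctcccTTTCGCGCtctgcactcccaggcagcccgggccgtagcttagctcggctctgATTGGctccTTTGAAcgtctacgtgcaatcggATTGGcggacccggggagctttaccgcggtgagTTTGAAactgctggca
Prc1, chr1:143659331-143659480, plus strand: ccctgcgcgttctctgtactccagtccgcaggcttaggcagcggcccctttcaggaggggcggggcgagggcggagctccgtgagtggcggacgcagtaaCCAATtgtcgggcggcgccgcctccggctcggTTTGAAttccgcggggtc
Mki67, chr1:199952594-199952743, minus strand: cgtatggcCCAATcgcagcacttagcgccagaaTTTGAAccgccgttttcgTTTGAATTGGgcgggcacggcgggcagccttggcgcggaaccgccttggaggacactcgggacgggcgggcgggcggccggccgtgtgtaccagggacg
Cdk1 was the mitosis gene with an E2F site (TTTCGCGC) beside its CHR and CCAAT letters. For comparison, the same stretch is given for 3 subunits of the MCM helicase with an E2F site, of which Mcm2 and Mcm6 rose at 2 days and Mcm7 was lower late in training:
Mcm2, chr4:122918095-122918244, minus strand: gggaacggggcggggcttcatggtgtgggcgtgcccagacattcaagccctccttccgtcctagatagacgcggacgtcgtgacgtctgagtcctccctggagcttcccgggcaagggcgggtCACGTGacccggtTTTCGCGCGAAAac
Mcm6, chr13:42404353-42404502, minus strand: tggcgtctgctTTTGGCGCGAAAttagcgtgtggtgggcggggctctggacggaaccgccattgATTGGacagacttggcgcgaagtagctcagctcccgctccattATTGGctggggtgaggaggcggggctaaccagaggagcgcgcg
Mcm7, chr12:22163179-22163328, minus strand: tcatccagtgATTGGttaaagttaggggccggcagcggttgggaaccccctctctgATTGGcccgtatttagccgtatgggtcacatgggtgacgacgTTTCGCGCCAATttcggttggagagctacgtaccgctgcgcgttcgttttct

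Most of the genes were higher in trained than in contralateral muscles at 2 and 10 days, fewer were at 20 days, and few were at 30 days. With no filter on low values, so that all 38 genes were tested, 32 rose after 2 days of training, 30 after 10 days, 15 after 20 days and 6 after 30 days. In the same fits 13.4%, 14.1%, 9.56% and 9.06% of all genes rose. No member fell after 2 or 10 days, when 9.82% and 10.1% of all genes did. After both 20 and 30 days Tpx2 and Mcm7 fell, beside 7.05% and 7.08% of all genes. With each rat as a block, 28, 23, 11 and 3 of the 38 passed in either direction, and the 3 at 30 days held 1 that rose. The share of all genes that passed with the block is not given here. Without trained muscle 2 of the 30-day group, 3 genes rose at 30 days. The median log2 difference over the 38 genes was 0.56, 0.53, 0.27 and 0.13, where that over all genes rounded to 0 at each time. With whole-muscle RNA, more dividing cells and more of these transcripts per cell cannot be told apart.

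For most of the genes the groups did not overlap at 2 and 10 days. All 3 trained values lay above all 12 contralateral values for 25, 27, 16 and 6 of the 38 genes after 2, 10, 20 and 30 days, against 7.58%, 8.85%, 6.91% and 6.28% of all genes. All 3 lay below for no member at the first 2 times (4.7% and 6.12% of all genes) and for Tpx2 at the last 2 (3.61% and 4.56%). The ratio of the trained to the contralateral mean had a median over the members of 5.98, 7.04, 2.97 and 1.88 at the 4 times. The median ratio of mitosis genes was 8.92, 9.04, 4.32 and 2.26, and that of replication genes 1.82, 1.85, 1.60 and 1.33. By class, 23, 23, 13 and 3 of 25 mitosis genes rose at the 4 times, and 7, 5, 0 and 2 of 10 replication genes. The difference between the classes was not tested.

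**Figure D1:**
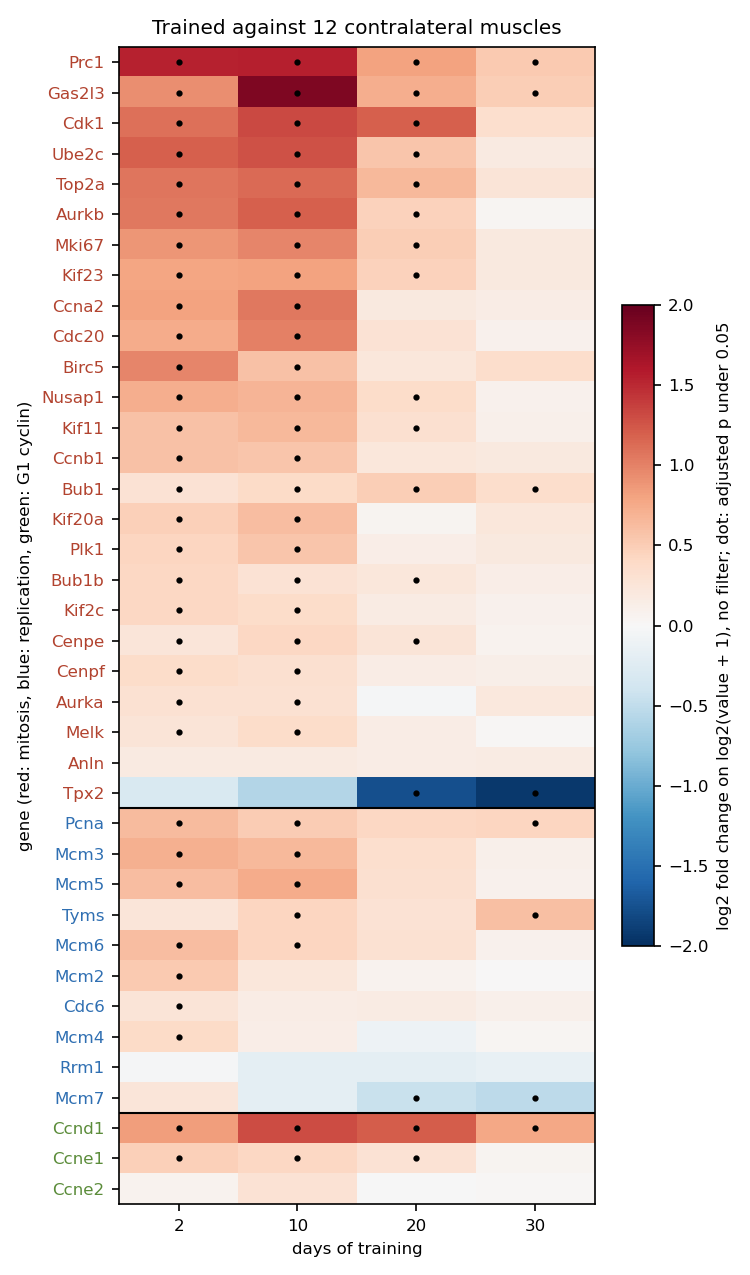
Heat map of the log2 fold change of the 38 genes (rows, by class and then by mean change) after 2, 10, 20 and 30 days of training (columns) against 12 contralateral muscles, in the fit with no filter. Red is higher in trained muscles, blue lower, and a dot marks an adjusted p under 0.05. Dots fill most mitosis rows at 2 and 10 days (23 of 25 each) and thin out to 3 higher genes at 30 days, and Tpx2 and Mcm7 are blue at 20 and 30 days.

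When genes had to reach a value of 1 in at least 3 libraries, 11196 genes and 21 of the 38 remained. Of these 21, 14 passed only with the help of trained muscles, so their counts repeat the choice in part. At 2 days 17 rose and 0 fell, where 15.4% of all genes tested rose and 13.5% fell, and at 10 days 15 rose and 0 fell (15.6% and 13.3%). At 20 days 10 rose and 2 fell (11.7% and 9.64%), and the last time had 5 that rose and 2 that fell (11.1% and 9.46%). Values of single genes below come from this fit unless stated otherwise. With each rat as a block, 16, 14, 11 and 3 of the 21 passed, so that the count at 30 days was 3 in place of 7 (Ccnd1 higher, Tpx2 and Mcm7 lower). Against contralateral muscles of the same time 15, 13, 8 and 2 passed. The shares of all genes that passed with the block and in this fit are not given here. The main 2-day count of 17 rested in part on trained muscle 2, and without it 11 of the 18 members still tested passed. At 30 days, 4 passed without trained muscle 2.

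Cdk1, the kinase that starts mitosis (chromosome 20, 20576377 to 20591550, plus strand, rn6), ranged from 0 to 0.751 in contralateral muscles with a median of 0.207. Trained values were 1.32, 2.05 and 1.73 at 2 days, 2.79, 1.48 and 2.24 at 10 days, 1.63, 1.85 and 2.14 at 20 days, and 0.314, 0.531 and 0.989 at 30 days. All 9 muscles trained for up to 20 days thus lay above every contralateral one, while at 30 days 1 of 3 did. The log2 difference was 1.10 ± 0.16 (SE) at 2 days (adjusted p = 1.07e-05), 1.32 at 10 days (7.36e-07) and 1.2 at 20 days (4.89e-06), and the test was not passed at 30 days (0.123).

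Mki67 encodes the Ki-67 protein that coats mitotic chromosomes and is used as a marker of dividing cells (chromosome 1, 207993895 to 208020455, minus strand). Its contralateral values lay between 0.0335 and 0.208, with a median of 0.0769. Training for 2 days gave 0.703, 1.58 and 0.922, and the later groups had 1.30, 0.867 and 1.37 at 10 days, 0.509, 0.358 and 0.786 at 20 days, and 0.126, 0.333 and 0.334 at 30 days. No overlap with the contralateral muscles was seen up to 20 days. The means were 10.7, 11.8 and 5.53 times the contralateral mean at those times and 2.66 times at 30 days, and the limma test was passed at 2 days (log2 difference 0.89, adjusted p = 9.31e-07), 10 days (0.98, 1.87e-07) and 20 days (0.49, 0.00153). Top2a, the topoisomerase that untangles replicated DNA, had a similar course, from 0.0223 to 0.225 in contralateral muscles to means of 1.39 ± 0.572, 1.48 ± 0.430, 0.764 ± 0.181 and 0.333 ± 0.0882 (SD, n = 3). At 30 days the lowest Top2a value, 0.249, was still above the contralateral range, although its test was not passed (adjusted p = 0.116).

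Prc1, which bundles the microtubules of the midzone where the cell divides (chromosome 1, 142087208 to 142108747, plus strand), rose at all 4 times. Contralateral muscles held 0.0426 to 0.595 with a median of 0.302. Trained muscles held 2.23, 3.73 and 2.48 at 2 days, 3.67, 2.28 and 2.66 at 10 days, 1.10, 1.21 and 1.49 at 20 days, and 0.554, 0.778 and 1.35 at 30 days. At 30 days 1 trained muscle lay within the contralateral range, and the log2 difference was 0.52 (adjusted p = 0.0064). That call was lost without trained muscle 3 (0.113), with the rat as a block (0.0735) and against contralateral muscles of the same time (0.0532). The earlier differences of 1.54, 1.56 and 0.80 held in all of these fits.

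Gas2l3, a linker of actin and microtubules at the cytokinetic midbody (chromosome 7, 29959597 to 29986164, minus strand), had the largest ratio of trained to contralateral means of the 38 genes at 10 days. Its values were between 0.0353 and 0.185 in contralateral muscles, 0.614, 1.79 and 0.998 after 2 days, 3.21, 2.74 and 2.94 after 10 days, 0.673, 0.916 and 0.849 after 20 days, and 0.268, 0.874 and 0.486 after 30 days. Every trained value was above every contralateral value at each time, and the mean at 10 days was 33.2 times the contralateral mean. Log2 differences were 0.93, 1.86, 0.73 and 0.48 ± 0.11, with an adjusted p of 1.39e-11 at 10 days. The call at 30 days (0.00346) did not hold without trained muscle 2 (0.079) or with the rat as a block (0.0816). It was also lost against contralateral muscles of the same time (0.0723). Between the trained groups, Gas2l3 was the member that rose from 2 to 10 days, by 0.93 (adjusted p = 0.00113), beside 1.08% of all genes, while 0 members fell (0.849%). Compared as within-rat differences, with the rat as a block, the change from 2 to 10 days was also 0.93 and did not pass (0.142).

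**Figure D2:**
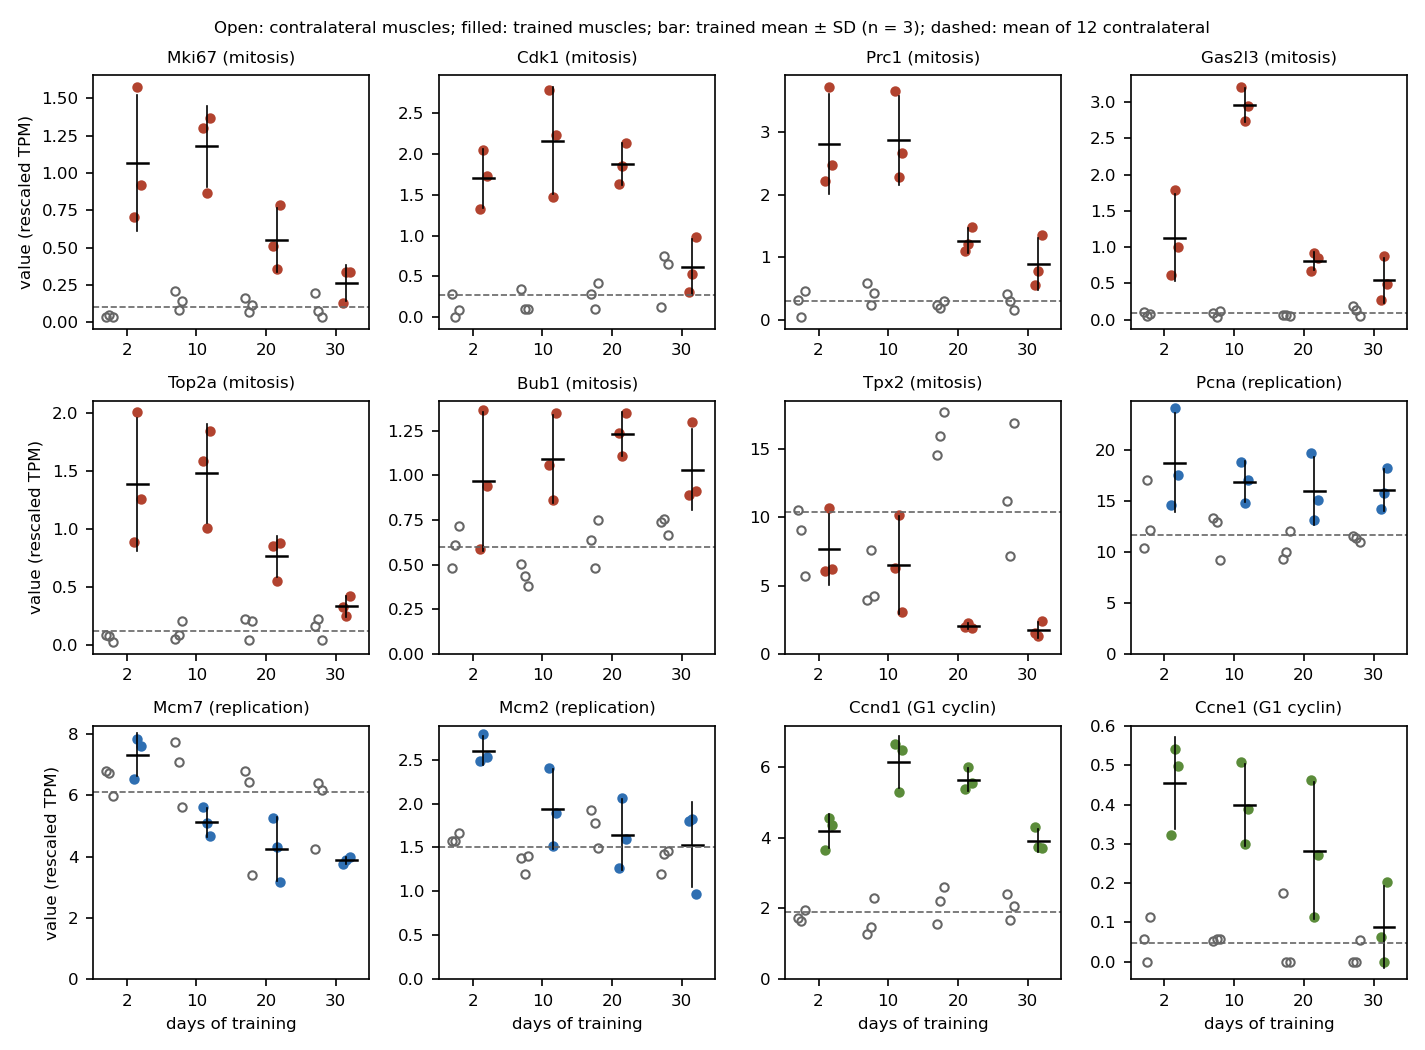
Values (rescaled TPM) of 12 genes in each of the 24 muscles by days of training. Open points are contralateral muscles, filled points trained muscles, bars the trained mean ± SD (n = 3) and the dashed line the mean of all 12 contralateral muscles. Mki67, Cdk1, Prc1 and Top2a stand clear of the contralateral muscles at 2 to 20 days, Gas2l3 peaks at 10 days with a mean of 2.96, and Tpx2 and Mcm7 lie low at 20 and 30 days.

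Of the chromosomal passenger complex, which corrects the attachment of chromosomes, Aurkb and Birc5 were on the list and rose at 2 and 10 days. Aurkb, its kinase, went from a contralateral median of 0.0596 (range 0 to 0.291) to 1.26, 1.41 and 1.02 at 2 days, 1.28, 0.842 and 2.58 at 10 days, 0.584, 0.244 and 0.646 at 20 days, and 0.0688, 0.280 and 0 at 30 days. The values at 30 days were all inside the contralateral range. The call at 20 days (log2 difference 0.46, adjusted p = 0.0142) was lost without trained muscle 1 (0.0833) or 3 (0.0956) of that group and against contralateral muscles of the same time (0.0732). Birc5 (survivin) had means of 1.26 ± 0.186 and 0.764 ± 0.450 at 2 and 10 days against 0.160 ± 0.143 (n = 12), with log2 differences of 0.97 and 0.58, and at 10 days the call rested on trained muscle 1 (adjusted p = 0.0949 without it).

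The anaphase-promoting complex marks mitotic cyclins for destruction, and its conjugating enzyme Ube2c and its activator Cdc20 rose at 2 and 10 days. Ube2c had contralateral values of 0 to 0.537 and trained values of 0.690, 2.92 and 1.85, then 2.32, 1.38 and 1.85, then 1.01, 0.724 and 0.418, and last 0.129, 0.332 and 0.519. All 6 muscles of the first 2 times were above the contralateral range and none of the last time was. Its call at 20 days (0.55, adjusted p = 0.0199) did not hold without trained muscle 1 (0.151) or 2 (0.0732) or against contralateral muscles of the same time (0.0572). Cdc20 had log2 differences of 0.74 and 1.01 at 2 and 10 days. Ccna2, the cyclin of S phase and early mitosis, had a contralateral median of 0.0665 and trained values of 0.369, 1.48 and 1.08 at 2 days and 1.81, 0.480 and 1.77 at 10 days, with log2 differences of 0.81 and 1.05. At 20 and 30 days its means were 0.263 and 0.222, and 1 of these 6 muscles exceeded the contralateral maximum of 0.4. Ccna2 overlaps Exosc9 on the other strand, and Kif20a and Ccne2 likewise overlap Cdc23 and Ints8. How the strand was used in counting is not given in the sources used here, so reads of these pairs may be shared.

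Bub1, a kinase of the spindle checkpoint, passed at all 4 times with small differences. Contralateral muscles held 0.381 to 0.757, and trained muscles 0.586, 1.37 and 0.941 at 2 days, 1.06, 0.862 and 1.35 at 10 days, 1.24, 1.11 and 1.35 at 20 days, and 0.888, 1.30 and 0.911 at 30 days. Its highest mean was at 20 days (1.23 ± 0.121), whereas the other 24 mitosis genes had theirs at 2 or 10 days. Log2 differences of 0.29, 0.39, 0.49 and 0.35 passed the test at each time. The call at 2 days (adjusted p = 0.0455) was lost without trained muscle 2 (0.472) or 3 (0.126), without any of 6 contralateral muscles and with the rat as a block (0.122). That at 10 days was lost without trained muscle 3 (0.0819), and that at 30 days without trained muscle 2 (0.185), with the block (0.239) and on the values as deposited (0.111). Against contralateral muscles of the same time, the calls at 2 days (0.148) and 30 days (0.291) were lost as well.

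Mitosis genes under the filter were 12 in number, with contralateral means from 0.0106 to 0.553. With no filter, 11 of them rose at 2 days and 11 at 10 days: the kinesins Kif11, Kif23 and Kif2c, the kinetochore genes Cenpe, Cenpf and Bub1b, the spindle gene Nusap1, the kinases Aurka, Plk1 and Melk, and the cyclin Ccnb1. Anln, a scaffold of the cleavage furrow, did not pass at any time. Among the mitosis genes with the highest levels, Aurka had a contralateral mean of 0.553 ± 0.191 and means of 0.906 and 0.905 at 2 and 10 days, and Ccnb1 means of 0.841 and 0.785 against 0.216 ± 0.123. Trained means of these 12 genes reached 0.145 to 0.959 at 2 days.

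Tpx2, the spindle factor that activates Aurora A, was set apart from the other mitosis genes by its level and its direction. It had the highest contralateral mean of the class, 10.4 ± 4.92, and ranged from 3.96 to 17.7. Trained values were 6.10, 10.7 and 6.22 at 2 days, 6.28, 10.2 and 3.06 at 10 days, 1.98, 2.29 and 1.91 at 20 days, and 1.51, 1.34 and 2.41 at 30 days. At 20 and 30 days all 6 trained muscles lay below all 12 contralateral ones, and the log2 difference was −1.76 ± 0.34 (adjusted p = 0.000549) and −1.93 (0.000267). Both calls held with the rat as a block and without any single muscle. In the contralateral muscles alone, 7 members could be tested for a difference between times (limma F test). Tpx2 was the 1 of them with an unadjusted p under 0.05, and its adjusted p was 0.232. Tpx2 lies 16 kb upstream of Mylk2, the myosin light chain kinase of skeletal muscle, on the same strand of chromosome 3. Mylk2 had a mean of 384 ± 49.0 in contralateral muscles and of 245, 157, 116 and 107 at the 4 times, and the part of its transcript in the Tpx2 values was not tested.

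Of the 6 helicase genes 5 rose at 2 days (Mcm2 to Mcm6) and 3 at 10 days (Mcm3, Mcm5 and Mcm6). Mcm2 (chromosome 4, 120825699 to 120840112, minus strand) held 1.2 to 1.93 in contralateral muscles and 2.49, 2.79 and 2.53 after 2 days, with no overlap. The log2 difference was 0.53 ± 0.11 (adjusted p = 0.00103). At 10 days the values were 2.41, 1.51 and 1.89, at 20 days 1.27, 2.07 and 1.60, and at 30 days 1.80, 1.82 and 0.972, and none of these times passed the test. Mcm4 was also higher at 2 days, with 2.36, 2.99 and 2.25 against 1.47 to 2.12 (log2 difference 0.38, adjusted p = 0.00383), a call that was lost without trained muscle 2 (0.0842). Its later means were 1.97, 1.53 and 1.82. Mcm6 rose at 2 days (0.61, adjusted p = 0.000685) and 10 days (0.43, 0.0124). The latter did not pass with the rat as a block (0.224) or against contralateral muscles of the same time (0.157). Mcm3 and Mcm5, both under the filter, rose at 2 and 10 days in the fit with no filter, from contralateral means of 0.161 and 0.0960 to 0.909 and 0.710 at 2 days and 0.834 and 0.896 at 10 days.

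Mcm7, the subunit with the highest level (chromosome 12, 19306607 to 19314017, minus strand), took another course. Contralateral muscles ranged from 3.41 to 7.76 with a median of 6.43. Values were 6.53, 7.85 and 7.60 at 2 days, 5.61, 5.10 and 4.67 at 10 days, 5.25, 4.32 and 3.17 at 20 days, and 3.76, 3.87 and 3.99 at 30 days. At 10, 20 and 30 days all 9 trained muscles were below the contralateral muscle of their own rat, while their values overlapped the contralateral range. Mcm7 fell at 20 days (log2 difference −0.44, adjusted p = 0.0379) and at 30 days (−0.52, 0.014). The call at 20 days was lost without trained muscle 2 (0.091) or 3 (0.271), without any of 3 contralateral muscles, with the rat as a block (0.129) and on the values as deposited (0.064). The same call was also lost against contralateral muscles of the same time (0.32). That at 30 days held with the block and was lost without trained muscle 1 or 2 (0.0575 each) and against contralateral muscles of the same time (0.169).

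Pcna, the sliding clamp of DNA polymerase (chromosome 3, 124880698 to 124884571, minus strand), had the highest contralateral mean of the replication genes after Rrm1. Contralateral muscles held 9.25 to 17.1 with a median of 11.5, and trained muscles 14.6, 24.1 and 17.6 at 2 days, 18.8, 14.8 and 17.1 at 10 days, 19.7, 13.2 and 15.1 at 20 days, and 14.2, 15.8 and 18.2 at 30 days. Each trained muscle was above that of its own rat on the other side, in 12 of 12 rats, and the ranges overlapped at each time through 1 contralateral muscle at 17.1, and at 20 days through 1 more. Log2 differences of 0.63, 0.50, 0.42 and 0.44 passed, with adjusted p of 0.00262, 0.0127, 0.0473 and 0.0394. The first was lost without trained muscle 2 (0.0824) and the second without trained muscle 1 (0.0986). At 20 days the call was lost with no filter (0.0562), without trained muscle 1 (0.325) or 3 (0.09) and without any of 9 contralateral muscles. At 30 days it was lost without trained muscle 2 (0.109) or 3 (0.208), without any of 5 contralateral muscles, with the rat as a block (0.0648) and on the values as deposited (0.236). In a fit with the contralateral muscles of each time as control, Pcna passed at none of the 4 times (adjusted p 0.0868, 0.0839, 0.0547 and 0.134).

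The remaining replication genes moved less or were near the limit of detection. Rrm1, the large subunit of ribonucleotide reductase, had a contralateral mean of 12.5 ± 1.08 and trained means of 12.3, 10.8, 10.9 and 11.2, and passed at no time, although on the values as deposited it was lower at 30 days (log2 difference −0.35, adjusted p = 0.0365). Tyms, which makes thymidylate, is the 1 replication gene whose highest mean was at 30 days. Its values were 0.0744 to 0.576 in contralateral muscles and 0.733, 1.16 and 0.776 at 30 days, all above that range, and with no filter it rose at 10 days (0.43, adjusted p = 0.0276) and 30 days (0.61, 0.00393). Cdc6, which loads the helicase on DNA, was at 0 in 8 of 12 contralateral muscles and had a mean of 0.221 ± 0.127 at 2 days, when it passed with no filter (adjusted p = 0.00497).

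Of the G1 cyclins, Ccnd1, the D cyclin that responds to growth signals (chromosome 1, 218090750 to 218100326, minus strand), rose at each time. Contralateral muscles held 1.28 to 2.62 with a median of 1.85, and trained muscles 3.65, 4.55 and 4.36 at 2 days, 6.66, 5.29 and 6.47 at 10 days, 5.39, 6.0 and 5.53 at 20 days, and 4.29, 3.74 and 3.71 at 30 days. There was no overlap at any time. The log2 differences were 0.84, 1.30, 1.2 and 0.77 ± 0.12, the adjusted p at 30 days was 4.24e-05, and no single muscle left out, nor the rat as a block, ended a call. Ccne1, the E cyclin of S phase entry, was under the filter, with a contralateral maximum of 0.175 and means of 0.455, 0.399, 0.283 and 0.0888, and with no filter it rose at 2, 10 and 20 days. Ccne2 had a contralateral mean of 0.705 ± 0.170 and trained means of 0.791, 1.09, 0.749 and 0.731, and did not pass at any time.

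The highest of the 4 trained means was at 2 days for 8 of 10 replication genes and 9 of 25 mitosis genes, and at 10 days for 1 and 15. The difference between these counts was not tested, and the 8 include Rrm1 and Mcm7, which did not pass at 2 days. Between trained groups, 1 of 21 members rose and 0 fell from 2 to 10 days. From 2 to 20 days 7 fell and 0 rose (4.44% and 3.61% of all genes). From 2 to 30 days 14 fell and 0 rose (7.91% and 7.07%), among them Prc1 (−1.01, adjusted p = 0.000331), Aurkb (−1.0, 0.000333), Top2a (−0.81, 0.000542) and Mki67 (−0.69, 0.00121). With no filter, 1 of 38 rose from 2 to 10 days (0.792% of all genes, with 0.727% lower) and 6 fell from 2 to 20 days (3.59%, with 2.73% higher and no member among them). From 2 to 30 days 24 of 38 fell (6.36%, with 5.38% higher and again no member among them), namely 17 of 25 mitosis genes, 6 of 10 replication genes and 1 G1 cyclin. These are comparisons of levels in trained muscles. When the differences to the contralateral muscles of the same time were compared instead, which is another contrast, 0, 1 and 6 of 21 passed without the rat as a block and 0, 1 and 5 with it, and the 5 were Cdk1, Top2a, Aurkb, Tpx2 and Prc1. The share of all genes that passed in that other contrast is not given here. In the comparison of levels without trained muscle 2 of the 2-day group, 18 members were tested. Of these, 0 passed from 2 to 20 days and 6 from 2 to 30 days. Between the contralateral muscles of the 4 times no member passed (limma F test), with 0 of 7 testable after the filter (0.0666% of all genes) and 0 of 38 without it (0.0197%), where Ccnb1 and Tpx2 had an unadjusted p under 0.05.

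Within rats, nearly all mitosis genes were higher on the trained side early in training. All 25, or all but 1, were higher in each of the 6 rats trained for 2 or 10 days, 20 to 23 in the rats trained for 20 days, and 18 to 22 in those trained for 30 days. The median difference to the own contralateral muscle was 0.45 to 0.80 at 2 days and 0.43 to 0.70 at 10 days, and 0.08 to 0.29 at 30 days. For the 10 replication genes it was 0.31 to 0.52 at 2 days, 0.18 to 0.47 at 10 days, and 0.04 to 0.08 at 30 days. In both classes the medians of the 3 rats at 2 days lay above those of the 3 rats at 20 days. Of the 38 genes, 34, 33, 24 and 19 were higher on the trained side in 3 of 3 rats at the 4 times, as were 24.7%, 24.7%, 22.8% and 20.7% of all genes.

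**Figure D3:**
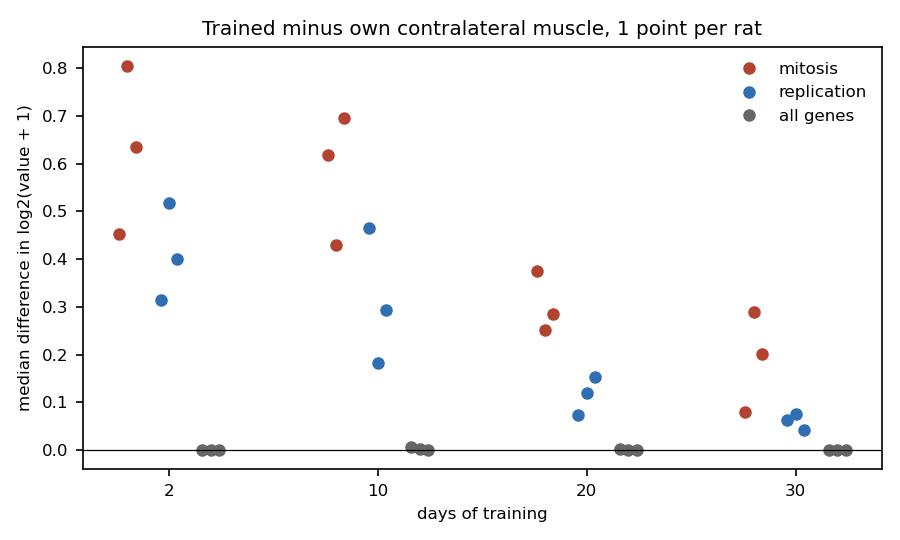
Median difference in log2(value + 1) between the trained muscle and the contralateral muscle of the same rat, 1 point per rat, for 25 mitosis genes (red), 10 replication genes (blue) and all 15273 genes (grey), by days of training. Mitosis medians lie between 0.43 and 0.80 at 2 and 10 days and between 0.08 and 0.29 at 30 days, replication medians lie below 0.10 at 30 days, and the medians of all genes lie at or near 0.

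The low values allow a look at the reads themselves. In genes with 1 transcript they fell on whole multiples of 1 step per library, within a tolerance of 0.005, for 88.0% of 4313 low genes, against 9.39% after random rescaling. A step is taken here as 1 read or read pair. Whole numbers were recovered for 21 of the 26 members with 1 transcript. Together these 21 genes had 81 to 178 reads in a contralateral library, 433, 759 and 547 at 2 days, 672, 391 and 635 at 10 days, 277, 280 and 402 at 20 days, and 177, 276 and 205 at 30 days. At 30 days 1 trained library was within the contralateral range. These totals are not scaled for the mitochondrial share of a library, which was 23.7% to 44.6% over the 24 libraries. In trained libraries it was 25.9%, 25.3% and 28.8% at 2 days and 40.4%, 43.6% and 44.6% at 30 days. Contralateral libraries had 28.1% to 44.2%. The part of this share in the totals was not tested. The relative depth of the libraries, from the same steps, was 0.688 to 1.2.

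Reads were scaled for that depth and for the median-of-ratios factor of each library. The rate of reads in 3 trained libraries was then divided by that in 12 contralateral ones. The 95% interval of this ratio (exact, counting error only) lay above 1 for 21, 21, 16 and 12 of the 21 genes at the 4 times. Among the 5279 genes with 1 transcript whose reads were recovered in the same way, 24.4%, 29.1%, 23.9% and 21.2% had such an interval, and 14.5%, 12.6%, 10.9% and 11.6% had one below 1. The interval lay below 1 for none of the 21, a set that lacks Tpx2 and Mcm7, the members that fell, and that is not the same as the 21 past the filter. Mki67 had 98 reads in 12 contralateral libraries and 297, 314, 144 and 61 in the 3 trained libraries of each time, for rate ratios of 10.8 (8.53 to 13.7), 11.9 (9.5 to 15.1), 5.60 (4.31 to 7.32) and 2.65 (1.89 to 3.68). Cenpf, a kinetochore gene that was under the filter, had 23 reads in 12 contralateral libraries and 93 in 3 libraries at 2 days, a ratio of 14.3 (9.01 to 23.7). Cdc6 rested on 5 contralateral reads, which leaves its ratio at 2 days between 4.27 and 41.8. Mcm2 at 30 days had 118 reads against 493, a ratio of 1.02 (0.826 to 1.25). Intervals of this kind leave out the spread between rats.

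**Figure D4:**
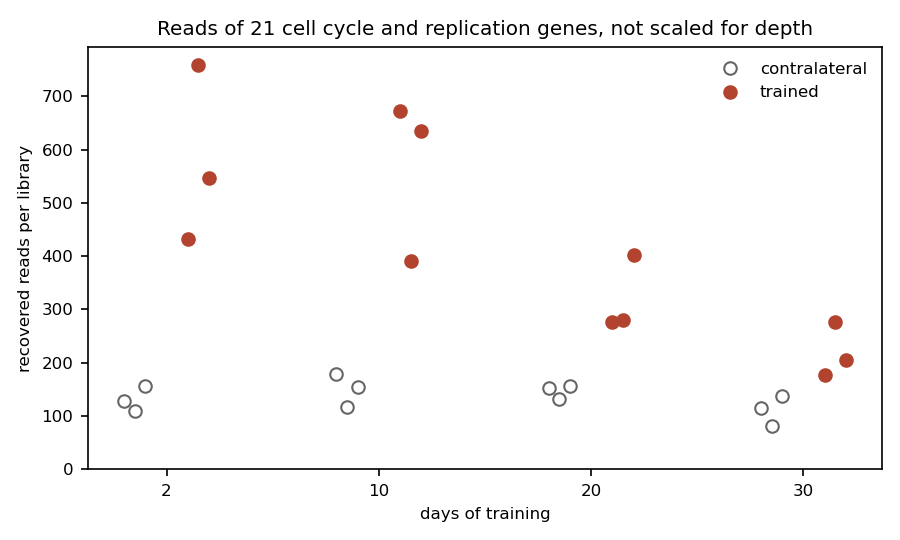
Recovered reads of 21 of the genes per library (not scaled for depth or mitochondrial share) by days of training, in contralateral (open) and trained (filled) muscles. Trained libraries hold 391 to 759 reads at 2 and 10 days and contralateral libraries 81 to 178, and at 30 days the lowest trained library, with 177, reaches the contralateral range.

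Other genes of the same processes were counted in the same fits. Of 45 further mitosis genes, 34, 34, 8 and 1 rose at the 4 times with no filter, and 1, 1, 2 and 3 fell, where 13.4%, 14.1%, 9.56% and 9.06% of all genes rose and 9.82%, 10.1%, 7.05% and 7.08% fell. Examples with the filter at 2 days were Cks2, a subunit of CDK complexes (log2 difference 1.30, adjusted p = 2.15e-06), the kinesin Kif22 (1.02, 2.19e-05) and Cdca8 of the passenger complex (0.76, 7.19e-05). Espl1, the separase that cuts cohesin, fell at each time, by 0.69, 0.62, 0.68 and 0.65 on the log2 scale. Of 41 further replication genes, 13, 4, 0 and 0 rose and 2, 4, 1 and 0 fell. From 10 days on, the shares of this list that rose and that fell were below those of all genes. Gins2, which activates the helicase, rose at 2 days by 0.67 and at 10 days by 0.42, and the thymidine kinase Tk1 by 0.77 and 0.88, whereas Rpa1, which coats single-stranded DNA, fell at 2 days by 0.40 on the log2 scale. At 20 and 30 days 1 further replication gene passed, the polymerase subunit Pold2, which was lower at 20 days (−0.39, adjusted p = 0.0405).

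Of 27 regulators of the G1/S step in the table, 8, 8, 6 and 4 rose and 3, 4, 3 and 5 fell with no filter, beside the same shares of all genes. The 3 that fell at 2 days are close to the share of all genes. Myc, a transcription factor of growth and S phase entry, was higher by 2.93, 2.66, 2.19 and 1.45 at the 4 times, with an adjusted p of 0.000133 at 30 days. E2f8, a repressor of the E2F family, was higher by 1.09, 1.2, 0.47 and 0.50. The pocket protein Rbl2, which holds resting cells out of the cycle, was lower at each time, by −0.80, −0.72, −0.64 and −0.54. Inhibitors of cyclin-dependent kinases did not share a direction: Cdkn2b rose at 2, 10 and 20 days (1.35, 1.07 and 1.14), Cdkn1c at 10, 20 and 30 days (1.51, 1.03 and 0.65), and Cdkn1b was lower at 2, 10 and 30 days (−0.57, −0.31 and −0.36).

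Markers of several cell types other than fibers moved with training. Counts here and in the next paragraph are with the filter unless stated otherwise. In that fit 15.4%, 15.6%, 11.7% and 11.1% of all genes rose at the 4 times. The shares that fell were 13.5%, 13.3%, 9.64% and 9.46%. The lists are short, and a single gene called in either direction is close to these shares. The summed value of 10 macrophage markers was 18.5 to 43.1 in contralateral muscles, 65.8 to 169 at 2 days, 55.5 to 119 at 10 days, 74.9 to 89.4 at 20 days and 78.9 to 103 at 30 days, and 7, 8, 9 and 9 of the 9 tested rose. Of 5 fibroblast markers 4, 5, 5 and 5 rose, with sums of 74.6 to 253 in contralateral muscles and of 301 to 495, 518 to 982, 562 to 614 and 355 to 416 in trained muscles. Endothelial markers (7 of 8 in the table) summed to 42.3 to 56.0 in contralateral muscles and to 42.8 to 43.3, 50.7 to 89.6, 68.1 to 85.3 and 57.7 to 76.8 in trained muscles, and 0, 3, 4 and 3 rose and 1 fell at 2 days, and the defining marker Pecam1 was not analysed here.

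Satellite cell and myoblast markers (5) summed to 24 to 48.8 in contralateral muscles and to 31.6 to 67.6, 33.3 to 39.8, 23.4 to 34.4 and 24 to 27.8 in trained muscles. Of the 4 tested 2, 1, 0 and 0 rose: Myog, the myogenin of differentiating myoblasts, at 2 days (1.41, adjusted p = 0.000518), and Myf5 at 2 days (0.54) and 10 days (0.40). With no filter none of the 5 rose at 10 days (Myf5, adjusted p = 0.0563). Of 4 pericyte and smooth muscle markers 1, 2, 1 and 1 rose and 1 fell at 2 days, with sums of 51.3 to 82.9 in contralateral and 57.1 to 105 in trained muscles. None of 4 Schwann cell markers rose and 2 fell at 30 days, and their sums were 3.69 to 19.6 in contralateral and 3.71 to 17.3 in trained muscles. Neutrophil markers (3) summed to at most 2.52 in any muscle, and T cell markers were not analysed here. Of 7 muscle fiber markers 4, 4, 4 and 3 fell and 1 rose at 10 days. The part of each cell type in the values of the cell cycle genes was not tested.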

How the data were processed

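RNA of 24 tibialis anterior muscles of 12 rats was sequenced from directional poly-A libraries, read by the authors with STAR in Partek Flow against rn6 with Ensembl annotation, and deposited as a table of TPM values for 20027 transcripts. A gene-level table of normalized signal values that the authors deposited held 4635 genes and 4 of the members, and was used as an alternative for those. A table of the authors' own comparisons (fold changes and p-values) was not used. The study's methods name median of ratios as the normalization, but every library of the table had the same total. TPM values carry no totals of reads, so depth is known here as relative depth only.

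Each library was rescaled with the median-of-ratios method over 16230 transcripts above 0 throughout, summed per gene symbol and tested as log2(value + 1) with limma 3.58.1 (R 4.3.3), in 1 fit of 5 groups: the 4 trained groups and the 12 contralateral muscles. The filter kept genes that reached 1 in 3 or more libraries. P-values were adjusted by Benjamini-Hochberg over all genes of a fit, with a threshold of 0.05. Python 3.11.15 was used for the other steps. No 2 of the 24 libraries were identical. Genes given value by value were the first 12 past the threshold, ordered by the number of times passed and then by the largest change, and up to 4 further per class with the highest mean. Of other lists, up to 3 per direction with the lowest p were named. Mcm3, Mcm5, Mcm6, Cdc6, Tyms, Cenpf and the other members under the filter that are named were added after their values were seen. On simulated data, 92.2% of genes changed by 1 and 97.4% of those changed by 2 on the log2 scale were recovered at 2 days, with 4.86% of calls false (200 of 11196 genes changed, 10 draws). The draws used independent normal noise, without pairs of muscles and without the counting of few reads. They leave out the 17 members under the filter, so these rates do not describe the lowest genes.

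The labels give both muscles of each rat, so the pairs are real: the deviations from the group means correlated with a median r of 0.174 within 12 rats (range 0.0277 to 0.343) and of -0.00636 between rats. Alternatives were the values as deposited, a pseudocount of 0.1, no filter, a filter on the mean, an intensity trend, the rat as a block, contralateral muscles of the same time, the gene-level table and leaving out each muscle. Fits combining no filter with another choice, and the recovered reads, were added after seeing the data. The design text speaks of more rats per time than the 3 used here. The members and gene lists were chosen with earlier results of these data known.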

Additional observations from a re-analysis of the deposited data

Results flagged for a closer look

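The level of single members in trained muscles differed between lengths of training, by the limma test of the difference between trained groups (Benjamini-Hochberg adjusted over 11196 genes). Each such difference in log2(value + 1) is listed here. From 2 to 10 days Gas2l3 rose by 0.93. From 2 to 20 days the differences were −0.59 for Aurkb, −0.75 for Birc5, −0.46 for Mcm2, −0.48 for Mcm4, −0.68 for Mcm7, −0.73 for Prc1 and −1.46 for Tpx2. From 2 to 30 days the mitosis genes differed by −1.0 (Aurkb), −0.62 (Birc5), −0.66 (Ccna2), −0.65 (Cdc20), −0.76 (Cdk1), −0.45 (Gas2l3), −0.69 (Mki67), −1.01 (Prc1), −0.81 (Top2a), −1.63 (Tpx2) and −1.01 (Ube2c). The replication genes differed by −0.53 (Mcm2), −0.53 (Mcm6) and −0.77 (Mcm7) over the same span. These are differences between trained muscles. As differences between the changes against contralateral muscles of the same time, which is another contrast, 0, 1 and 6 passed over the 3 spans without the rat as a block and 0, 1 and 5 with it.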

How the results depend on the processing

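The counts of the 21 filtered members past the threshold (17, 15, 12 and 7 at 2, 10, 20 and 30 days, and 1, 7 and 14 from 2 to 10, 20 and 30 days) moved under several choices. Counts of members in this paragraph are in either direction. Except for the fit with no filter, the shares of all genes that passed in these alternative fits are not given here. With no filter, 38 members were tested, and the counts were 32 at 2 days, 30 at 10 days and 24 from 2 to 30 days. With no filter and a pseudocount of 0.1 they were 32, 31, 20 and 11 at the 4 times and 3 from 2 to 20 days, as with a pseudocount of 0.1 alone (3). With a mean of at least 1, 8 members were tested. Of these, 5, 3 and 5 passed at 2, 10 and 20 days. From 2 to 10 days 0 passed, and from 2 to 30 days 4 did. With the rat as a block, so that the muscles of a rat are paired, 3 passed at 30 days. Between lengths of training the block compares within-rat changes, another contrast, and 0, 1 and 5 passed. The block with no filter gave 28, 23 and 3 at 2, 10 and 30 days and 0, 1 and 4 between lengths. With contralateral muscles of the same time, 8 passed at 20 days and 2 at 30 days, and 0, 1 and 6 between lengths, in the same contrast as the block. Leaving out 1 muscle at a time gave 11 to 17, 10 to 15, 9 to 12 and 4 to 7 at the 4 times, 1 to 1, 0 to 10 and 6 to 14 between lengths (0 and 6 without muscle 2 of the 2-day group), and 0 to 0 among contralateral muscles. Without 1 trained muscle, the filter left 17 to 21 of the members to test. The causes were not tested, beyond fewer or more genes being tested under another filter. Over the named genes and times called, 1028 alternatives kept the call and direction, 78 kept the direction and lost the call, and 0 turned. Fits in which a gene was not tested are not in this tally, and many of those in it leave out a single muscle. Depth limits the lowest genes, since 21 members together had 81 to 178 recovered reads in a contralateral library.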
